A study of Mus musculus with 22 samples.

Results

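Invasion and mesenchymal genes of the esophageal epithelium were followed across mice with eosinophilic esophagitis (EoE), mice with esophageal squamous cell carcinoma (ESCC) and controls. The 10 genes (Vim, Fn1, Snai2, Cdh1, Acta2, Tnc, Cd44, Plau, Plaur and Mmp13) were taken by name out of the 17541 genes listed in the count files, and all 10 were found there. All mice were of the C57BL6 strain. EoE was induced in 4 mice by MC903, a vitamin D analog, and ovalbumin (OVA) on the ears for 12 days, followed by OVA by gavage and in the drinking water up to day 32. Of these, mice 9 and 10 were 6 to 8 weeks old (young) and mice 11 and 12 were 19 to 20 months old (old). ESCC was induced in 3 mice (17F, 17M and 8M; 8 to 10 months old) with the carcinogen 4-nitroquinoline 1-oxide (4NQO) in drinking water for 16 weeks and then 8 weeks without it. The 6 controls were untreated, with mice 1, 2 and 6 at 3 to 4 months and mice 3, 4 and 5 at 18 to 20 months. Age was not matched to treatment, and the controls did not receive the ear scraping or the vehicles. The epithelium-enriched layer was peeled from the muscle, made into single cells and profiled by inDrop, in which all transcripts of a cell carry 1 barcode and each captured molecule a unique molecular identifier (UMI).

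In epithelial-mesenchymal transition, epithelial cells lose cell-cell junctions and gain motility. E-cadherin, the product of Cdh1, holds neighboring keratinocytes together at adherens junctions, and Snai2 encodes Slug, a transcription factor that can repress Cdh1 and that basal keratinocytes of normal squamous epithelium also make. Vim (vimentin, an intermediate filament protein of fibroblasts, endothelium and leukocytes), Fn1 (fibronectin) and Acta2 (smooth muscle actin) are used as mesenchymal markers. Tnc encodes tenascin-C, a matrix glycoprotein of remodeling tissue. Cd44 is the hyaluronan receptor, found on basal keratinocytes and leukocytes. Plau (urokinase) and its receptor Plaur activate plasminogen at the cell surface, and Mmp13 is a collagenase. Because leukocytes, fibroblasts and vessels make several of these transcripts, the cell that holds each UMI matters as much as the level. Krt5, the keratin of basal keratinocytes, served here to mark epithelial cells, although a cell without it can be epithelial too.

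The files held 1500 cells per condition. The total per mouse was 112412 to 427752 UMIs in controls, 61571 to 85774 in EoE and 1293418 to 2118140 in ESCC, and the median cell held 990, 138 and 3099.5 UMIs, respectively. Only 144 EoE cells met the limits given in the methods (250 to 3500 genes and 100 to 9500 UMIs), against all 1500 control and 1494 ESCC cells, so the deposited cells were not restricted to them. A Krt5 UMI was present in 76.7% of control, 15.6% of EoE and 97.7% of ESCC cells, and 194 of the 234 Krt5-bearing EoE cells had a single one. Cells were called non-epithelial where at least 3 UMIs, and more than the epithelial markers had, fell on immune, fibroblast, endothelial, muscle or glial markers, which gave 7 control, 3 EoE and 22 ESCC cells. A call that asks for 3 marker UMIs depends on depth, so these numbers cannot be compared between groups, least of all in EoE. Of the 22 ESCC cells, 4 (18.2%, exact 95% interval 5.19 to 40.3) had a Krt5 UMI, 1 each, while 1448 of the 1461 other Krt5-bearing ESCC cells had 2 or more, at a median of 31. Krt5 is among the epithelial markers, so the call itself kept Krt5 low in the non-epithelial cells. Their Krt5 counts are therefore no measure of free RNA, which was not estimated. Libraries of the same mouse shared cell barcodes, 239 in all over 9 pairs of libraries with 4 to 52 per pair. Each of the 239, compared only with the shared barcodes of the other library, resembled its own partner most. Such cells were counted as deposited, and levels, ratios and calls of the 10 genes with 1 copy are given where a call or the order of groups changed or a value moved by over 1.5 times. No doublet caller was run. Levels are CPM, the UMIs of a gene per 1000000 UMIs of a mouse over all its cells, scaled by TMM (trimmed mean of M-values), with the mouse as replicate, and in such sums fewer cells of a type and less RNA per cell cannot be told apart. Intervals and floors cover counting error only, and a count of 0 over a group allows up to 3 UMIs, that is 1.63 CPM in controls, 10.6 CPM in EoE and 0.607 CPM in ESCC.

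Over all deposited cells, Cd44 had the most UMIs of the 10 genes and was higher in both diseases, Cdh1 was higher in EoE, and Snai2 was lower in EoE. The 3 differences in EoE did not hold in every set of cells and mice, as given below. The remaining 7 genes had at most 170 UMIs in any group and did not pass the filter on low counts (filterByExpr). Cd44 measured 824, 813 and 681 CPM in ESCC mice 17F, 17M and 8M. In EoE mice 9, 10, 11 and 12 it measured 1118, 739, 769 and 873 CPM, and in the 6 controls 380 at the lowest, 509 at the median and 594 at the highest. All 7 diseased mice were above all 6 controls, while the EoE and ESCC values overlapped. Cdh1 measured 119, 124 and 152 CPM in ESCC mice 17F, 17M and 8M. In EoE mice 9, 10, 11 and 12 it measured 515, 175, 131 and 218 CPM, and in controls 93.1, 114 and 153 CPM at the lowest, median and highest. EoE mouse 9 stood far above the others, and EoE mouse 11 lay inside the range of the controls. Snai2 measured 118, 157 and 134 CPM in ESCC mice 17F, 17M and 8M, and 76.9, 89.9 and 148 CPM at the lowest, median and highest control. In EoE mice 9, 10, 11 and 12 it measured 37.7, 13.4, 81.8 and 29.1 CPM, resting on 3, 1, 5 and 2 UMIs. EoE mouse 11 overlapped the controls, no EoE mouse reached the ESCC mice, and controls and ESCC overlapped.

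**Figure D1:**
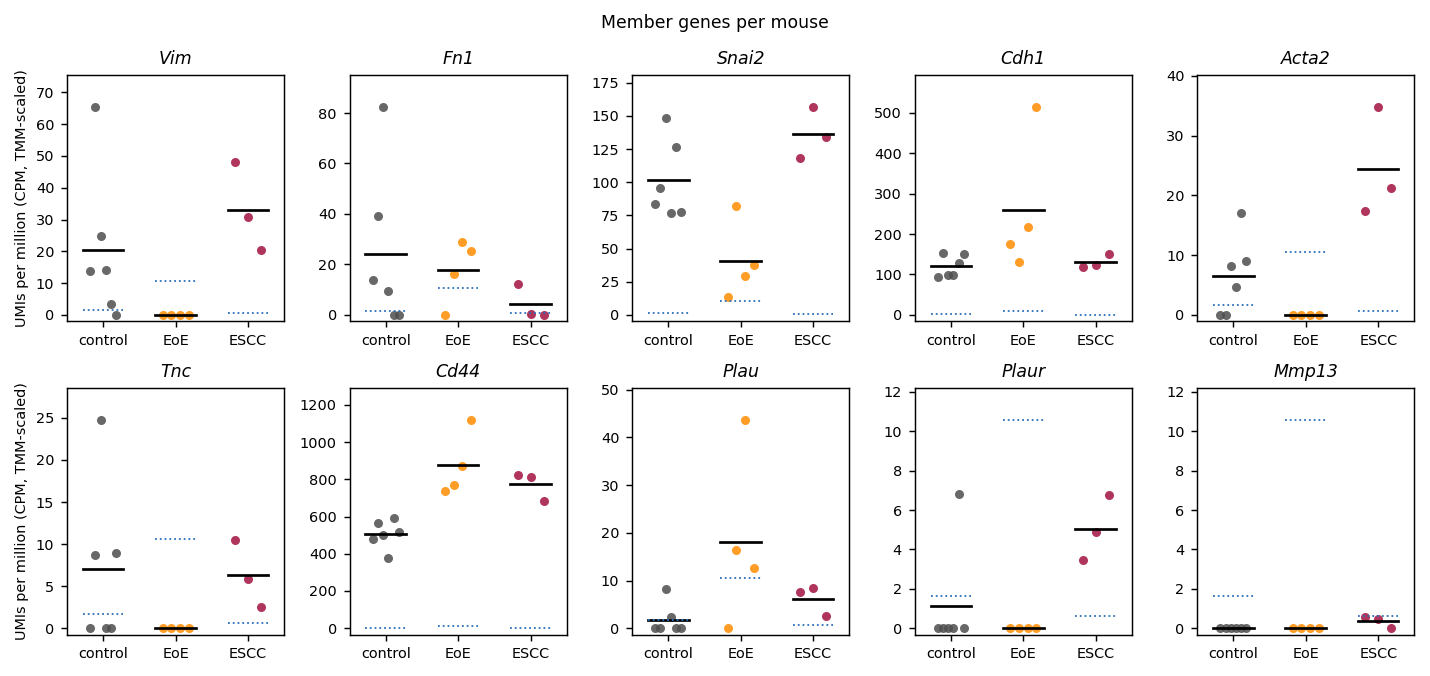
Level of each of the 10 genes per mouse, in TMM-scaled CPM (y axis, linear, own scale per panel), in 6 control, 4 EoE and 3 ESCC mice; points are mice, black bars the group means, and dotted blue lines the level of 3 UMIs over the group. Cd44 was above every control in all diseased mice, and Vim, Acta2, Tnc, Plaur and Mmp13 were at 0 in all EoE mice, where the dotted line stands highest.

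In ESCC against control, 1 of the 3 tested genes changed, beside 33.5% of the 5971 genes tested, 16.6% higher and 16.9% lower (edgeR quasi-likelihood test on UMIs summed per mouse, Benjamini-Hochberg adjusted p under 0.05). Cd44 rose by 0.63 ± 0.18 on the log2 scale (SE; adjusted p = 0.00795), from 506 ± 75.1 CPM (SD, n = 6) to 773 ± 79.5 (SD, n = 3). Snai2 differed by 0.51 ± 0.21 (edgeR adjusted p = 0.0557), from 102 ± 29.4 CPM to 136 ± 19.5, and did not pass. Cdh1 differed by 0.14 ± 0.24 (edgeR adjusted p = 0.703) and measured 120 ± 27.2 CPM in controls and 131 ± 17.8 in ESCC. Cd44 kept its call in Krt5-bearing cells alone, at 0.73 (edgeR adjusted p = 0.0124), and with each mouse left out. Snai2 passed under 10 of the alternatives, among them 1 copy of each shared barcode (0.56, edgeR adjusted p = 0.0318) and without control mouse 3 (0.62, 0.0195), control mouse 5 (0.63, 0.0329) or ESCC mouse 8M (0.59, 0.0346). In Krt5-bearing cells alone, however, it differed by 0.14 (edgeR adjusted p = 0.659). Krt5 itself rose by 1.03 ± 0.19 in the same fit, to 9827 ± 1346 CPM from 4839 ± 867, and the summed basal markers were 19498 to 29070 CPM in ESCC against 11551 to 16427 in controls. The part of this shift in the Snai2 level of whole samples was not tested further.

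In EoE against control all 3 tested genes changed, beside 50.7% of all genes tested, 21.4% higher and 29.3% lower. Cd44 rose by 0.77 ± 0.18 on the log2 scale (edgeR adjusted p = 0.000938), to 874 ± 172 CPM (SD, n = 4). Cdh1 rose by 1.13 ± 0.29 (edgeR adjusted p = 0.0023), to 260 ± 174 CPM. Snai2 fell by 1.33 ± 0.42 (edgeR adjusted p = 0.0104), to 40.5 ± 29.3 CPM, while the median of all genes differed by -0.31. These calls depended on which cells and mice were used. In cells within the limits Cd44 differed by 0.07 (edgeR adjusted p = 0.859), and in Krt5-bearing cells by -0.23 (0.634). Cdh1 stood at 1.35 (edgeR adjusted p = 0.00561) within the limits, at 0.29 (0.664) in Krt5-bearing cells and at 0.55 (0.123) without EoE mouse 9. Snai2 stood at -1.14 (edgeR adjusted p = 0.129) in Krt5-bearing cells and at -1.00 (0.0675) without EoE mouse 10. Over all Krt5-bearing cells and without TMM, Cd44 was 504 CPM in controls and 704 in EoE, and Cdh1 110 and 221. Snai2 was 136 and 101 CPM. These EoE levels rest on 35, 11 and 5 UMIs, and the part of the scaling in the fitted values was not tested. Krt5 fell by 2.26 ± 0.21 in the same comparison, to 1024 ± 155 CPM. The summed superficial markers were 55435 to 86706 CPM in EoE, 27116 to 59737 in controls and 7023 to 18841 in ESCC. Of the 10 genes, EoE cells within the limits held 62 UMIs of Cd44, 36 of Cdh1, 4 of Fn1 and 1 each of Snai2 and Plau.

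Between the diseases 2 of the 3 tested genes changed, beside 56.5% of all genes tested, 32.9% higher and 23.6% lower in ESCC. Snai2 was higher in ESCC than in EoE by 1.84 ± 0.40 (log2, edgeR adjusted p = 0.000423) and Cdh1 differed by -1.00 ± 0.30 (adjusted p = 0.00703). Cd44 differed by -0.15 ± 0.20 (edgeR adjusted p = 0.551). Without EoE mouse 9, Cdh1 differed by -0.41 (edgeR adjusted p = 0.245). In Krt5-bearing cells Snai2 stood at 1.28 (edgeR adjusted p = 0.0776), Cdh1 at 0.03 (0.973) and Cd44 at 0.96 (0.0287). Without TMM, however, Cd44 over these cells was 753 CPM in ESCC and 704 CPM in EoE, the latter on 35 UMIs. The part of the scaling in the Cd44 value of 0.96 was not tested.

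**Figure D2:**
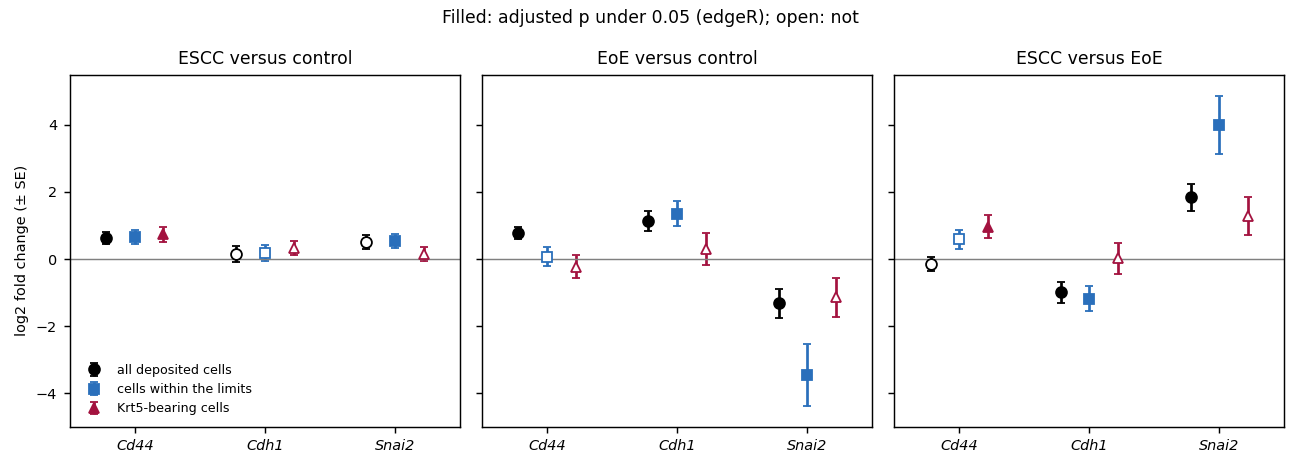
Log2 fold changes (y axis, ± SE) of Cd44, Cdh1 and Snai2 in the 3 comparisons between groups, from all deposited cells (circles), cells within the limits (squares) and Krt5-bearing cells (triangles); filled symbols have an edgeR adjusted p under 0.05. In ESCC against control the 3 sets of cells gave Cd44 values of 0.63, 0.65 and 0.73. In EoE against control they gave 0.77, 0.07 and -0.23, the last on 35 EoE UMIs.

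The mesenchymal genes were sparse. Vim measured 48.1, 30.9 and 20.3 CPM in ESCC mice 17F, 17M and 8M (83, 63 and 24 UMIs), and 0, 14.0 and 65.4 CPM at the lowest, median and highest control. All 4 EoE mice were at 0. The summed endothelial markers were 269 to 425 CPM in EoE, 8.98 to 56.7 in controls and 11.9 to 44.6 in ESCC. In EoE 5 of the 8, Cdh5, Kdr, Emcn, Cldn5 and Tie1, were at 0. Pecam1, the only endothelial marker tested, was higher in EoE than in controls by 6.93 on the log2 scale (edgeR, adjusted p under 0.05). In Vim, control mouse 2, with 15 UMIs, was above every ESCC mouse, so the groups overlapped. With 1 copy of each shared barcode it had 9 UMIs (42.6 CPM), which was below ESCC mouse 17F and above 17M and 8M. Over the groups the ESCC level was 2.04 times that of controls (95% counting interval 1.38 to 3.09). The Vim level was 3.25 times the EoE floor in ESCC and 1.60 times in controls, with the ESCC and control counts taken as exact. The counting interval of ESCC lay above that of EoE, but those of controls and EoE overlapped. The value of 1.60 is therefore no lower bound and does not separate controls from EoE. In single EoE mice 3 UMIs equaled 37.7 to 49.1 CPM, above every control except mouse 2. Acta2 measured 17.4, 34.8 and 21.2 CPM in ESCC mice 17F, 17M and 8M (30, 71 and 25 UMIs) and 0, 6.45 and 17.1 CPM at the lowest, median and highest control, with 0 in all EoE mice. All 3 ESCC mice lay above all 6 controls, although mouse 17F exceeded control mouse 5 only by 17.4 to 17.1 CPM. With 1 copy the order turned, at 14.4 CPM in 17F and 17.9 in control mouse 5, so the groups overlapped. The ratio over the groups was 4.25 (2.30 to 8.74), and 4.08 (2.06 to 9.18) on 99 and 9 UMIs with 1 copy. A single barcode, present in both libraries of mouse 17M with 20 and 10 UMIs, held 30 of the 126 ESCC UMIs.

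Fn1 had a lower level in ESCC than in controls over the groups, with overlap between mice. It measured 12.2, 0.490 and 0 CPM in ESCC mice 17F, 17M and 8M and 0, 11.6 and 82.5 CPM at the lowest, median and highest control, and the ratio over the groups was 0.282 (0.154 to 0.508). In EoE mice 9, 10, 11 and 12 it measured 25.1, 0, 16.4 and 29.1 CPM, on 2 UMIs or fewer each. Tnc had 18, 12 and 3 UMIs in ESCC mice 17F, 17M and 8M (10.4, 5.88 and 2.54 CPM), none in EoE and at most 3 in a control. The ratio to controls was 1.53 (0.694 to 3.84), an interval that includes 1. With 1 copy of each shared barcode the 33 ESCC UMIs became 22, and mouse 17M went from 12 to 6 (3.18 CPM).

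The proteolysis genes were the rarest. Plau had 13, 17 and 3 UMIs in ESCC mice 17F, 17M and 8M (7.53, 8.33 and 2.54 CPM). In EoE mice 9, 10, 11 and 12 it had 1, 0, 1 and 3 UMIs (12.6, 0, 16.4 and 43.6 CPM), and in controls 2 UMIs in all, from mice 3 and 4. The ratio to controls was 6.13 (1.57 to 52.7) in ESCC and 16.2 (2.65 to 170) in EoE, the latter on 5 UMIs against 2. With 1 copy a single control UMI was left, in mouse 4, and the ratios became 11.9 (1.98 to 483) and 29.8 (3.34 to 1411). Plaur had 6, 10 and 8 UMIs in ESCC mice 17F, 17M and 8M (3.48, 4.90 and 6.78 CPM), 2 in control mouse 5 and none elsewhere, with a ratio of 4.46 (1.11 to 38.9). Mmp13 had 1 UMI in each of ESCC mice 17F and 17M and was at 0 in the other 11 mice, so no fold is given. Without a filter on low counts, all 10 genes entered the ESCC against control fit and 6 were called, beside 18.3% of 15474 genes, 11.0% higher and 7.32% lower. Acta2 (2.05 ± 0.46, edgeR adjusted p = 0.000141), Vim (0.99 ± 0.35, 0.026), Cd44, Snai2 and Plau (0.0434, on 2 control UMIs) were higher, and Fn1 (-1.86 ± 0.52, 0.00309) was lower. Plaur (edgeR adjusted p = 0.149), Tnc (0.675), Cdh1 and Mmp13 were not called. DESeq2 called 3 of the 8 members it tested, Acta2, Cd44 and Snai2 but not Vim, Plau or Fn1, beside 23.5% of 11267 genes. In EoE against control 5 of 10 were called by edgeR without the filter, beside 23.8% of genes, the 3 above with Plau (edgeR adjusted p = 0.0158) and Vim (0.00985, at 0 in EoE). DESeq2 called 4 of 7, beside 35.7%, the same 3 with Plau. Between ESCC and EoE both called Cdh1, Snai2, Acta2 and Vim, 4 of 10 without the filter beside 28.0% of genes in edgeR and 4 of 8 beside 39.0% in DESeq2.

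The genes fell into different cells. In controls Krt5-bearing cells held 71.9% of all UMIs, and in ESCC 98.0%. Of the Krt5-free cells, 6 of 350 in controls, 3 of 1266 in EoE and 18 of 35 in ESCC were called non-epithelial. In controls and EoE, UMIs outside Krt5-bearing cells thus need not lie outside the epithelium. Snai2 lay in them almost without exception, with 171 of 172 UMIs in controls (99.4%, exact 95% interval 96.8 to 100) and 682 of 682 in ESCC (99.5 to 100). Cdh1 lay just under the share of all UMIs, with 139 of 217 UMIs (64.1%, 57.3 to 70.4) in controls and 612 of 636 (96.2%, 94.4 to 97.6) in ESCC. Cd44 lay close to the share of all UMIs, with 635 of 906 (70.1%, 67.0 to 73.1) and 3825 of 3886 (98.4%). Vim departed from this, with 6 of 31 UMIs (19.4%, 7.45 to 37.5) in controls and 84 of 170 (49.4%, 41.7 to 57.2) in ESCC. Fn1 had 2 of 29 UMIs (6.90%, 0.846 to 22.8) in Krt5-bearing control cells and 8 of 22 (36.4%, 17.2 to 59.3) in ESCC. In ESCC all 126 Acta2 UMIs and all 33 Tnc UMIs were in Krt5-bearing cells, as were 32 of 33 for Plau and 22 of 24 for Plaur, against 98.0% of all UMIs. In EoE, where 16.7% of all UMIs were in Krt5-bearing cells, these held 35 of 251 Cd44, 11 of 77 Cdh1 and 5 of 11 Snai2 UMIs, and 0 of 5 for Plau. With at least 2 Krt5 UMIs asked of a cell, 40 EoE cells with 4.33% of all UMIs were left, holding 6 Cd44, 1 Cdh1 and 1 Snai2 UMI. In ESCC the same step left every Acta2 and Tnc UMI and 32 of 33 Plau UMIs in such cells, and 61 of 170 Vim UMIs (35.9%, 28.7 to 43.6), beside 97.0% of all UMIs.

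**Figure D3:**
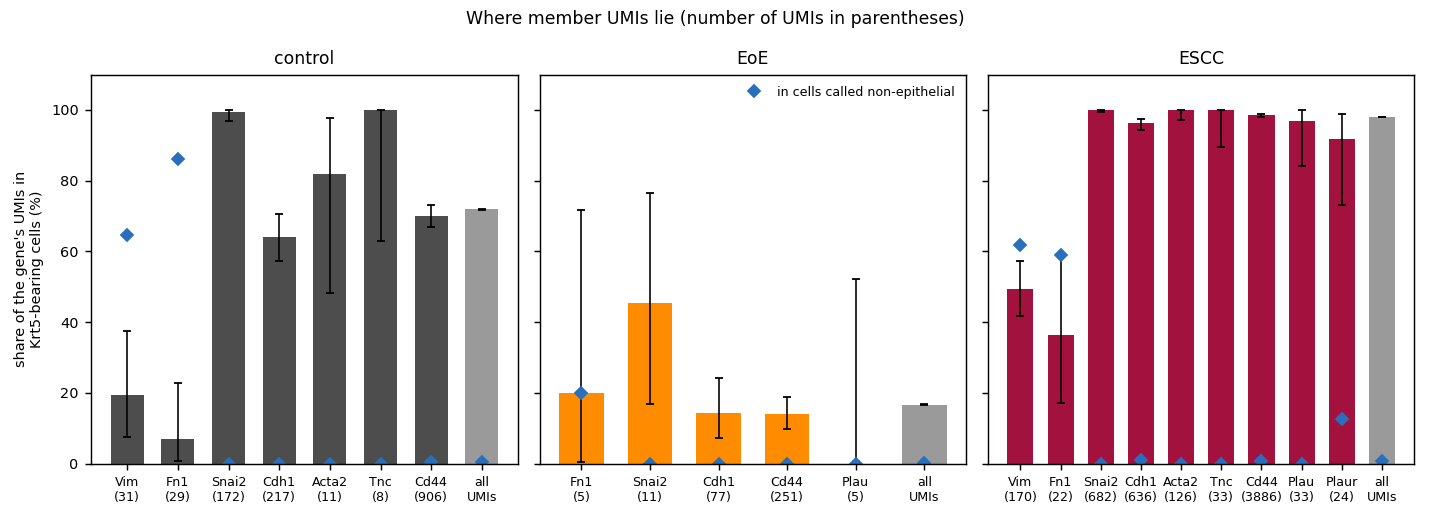
Share of each gene's UMIs found in Krt5-bearing cells (bars, y axis in percent from 0, with exact 95% intervals for counting error) and in cells called non-epithelial (blue diamonds), per group, for genes with at least 5 UMIs; numbers in parentheses are UMIs, and the gray bar is the share of all UMIs. Vim and Fn1 stood apart, with 49.4% and 36.4% in Krt5-bearing ESCC cells against 98.0% of all UMIs.

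The contrast of Krt5-bearing with Krt5-free cells was tested with the mouse as a block. In controls, 2 of 3 tested genes changed, beside 51.1% of 2249 genes, 26.0% higher and 25.1% lower. Snai2 was higher in Krt5-bearing cells, 136 CPM against 2.03 CPM (1 UMI) over all control cells, a ratio of 66.8 (counting interval 11.8 to 2654), with an edgeR adjusted p of 5.92e-09. With 1 copy of each shared barcode all 159 UMIs were in Krt5-bearing cells. Cdh1 was lower in them, with a log2 difference of -0.63 ± 0.24 (edgeR adjusted p = 0.0337), a call lost with DESeq2 (-0.56, 0.258), with 1 copy of each shared barcode (-0.47, 0.0936) and without control mouse 1 (-0.41, 0.219), 2 (-0.54, 0.0855) or 4 (-0.53, 0.123). Cd44 differed by -0.23 ± 0.12 (edgeR adjusted p = 0.116). In ESCC 2 of 5 tested genes changed, beside 2.25% of 7166 genes, 0.809% higher and 1.44% lower. Vim was lower in Krt5-bearing cells, with a log2 difference of -5.27 ± 0.67 (edgeR adjusted p = 4.1e-12), at 16.5 CPM against 813 CPM over the group. Of the 35 Krt5-free cells 18 were non-epithelial and held their Vim, since the other 17 had no Vim UMI, which allows a share of cells with a UMI of up to 17.6%, against 2.46% of the Krt5-bearing cells not called non-epithelial. Snai2, at 0 in the 35 Krt5-free ESCC cells, was at least 4.73-fold higher in the Krt5-bearing ones (edgeR adjusted p = 0.00227, and 0.486 without ESCC mouse 17F). Acta2 was also at 0 in those 35 cells, too few to give a bound (edgeR adjusted p = 0.492), and Cd44 (0.64, 0.758) and Cdh1 (-0.58, 0.787) did not pass. In EoE only Cd44 could be tested (-0.35 ± 0.36, edgeR adjusted p = 0.622), where 6.74% of 564 genes were called.

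Vim was mostly in cells carrying markers of other lineages. Of the 170 ESCC UMIs, 105 were in 21 of the 22 non-epithelial cells, of which 17 with 79 UMIs had immune markers in the lead, 3 with 23 UMIs endothelial and 1 with 3 UMIs fibroblast markers. In controls all 7 non-epithelial cells had Vim, and the 12 UMIs of 2 endothelial-led cells and 8 UMIs of 5 fibroblast-led cells made up 20 of 31. With 1 copy of each shared barcode, 1 endothelial-led cell with 6 UMIs was left, and 14 of 25 Vim UMIs lay in 6 non-epithelial cells. Fn1 was concentrated further, with 25 of 29 control UMIs in the same 5 fibroblast-led cells and 13 of 22 ESCC UMIs in 1 fibroblast-led cell of mouse 17F. The summed immune markers were 118 to 232 CPM in ESCC, 0 to 30.5 in controls and 12.6 to 147 in EoE. Of the 12 immune markers, 8 were at 0 in all controls and none was at 0 in ESCC. Mouse 17F, highest in Vim, had 14 of the 22 non-epithelial ESCC cells, 17M had 7 and 8M had 1. A Snai2 UMI was found in 0 of the 22 ESCC non-epithelial cells, which allows a share of cells with a UMI, not of cells expressing the gene, of up to 13.6% at a median of 2068 UMIs, and in 467 of 1461 Krt5-bearing cells not called non-epithelial (32.0%) at a median of 3110. Vim was in 21 of those 22 cells and in 36 of the 1461 (2.46%).

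These 36 Krt5-bearing ESCC cells with Vim (9, 19 and 8 in mice 17F, 17M and 8M, 65 UMIs) were compared with the 1425 without it, a comparison chosen after the values were seen. At least 1 immune marker UMI was present in 32 of the 36 (88.9%) and in 79 of the 1425 (5.54%), at a median of 2693.5 and 3111 UMIs per cell. In an edgeR fit with the mouse as a block, 97 of 7178 genes (1.35%) changed, 80 of them (1.11%) higher in the Vim-bearing cells. All 8 tested immune markers were higher, among them Laptm5 (6.69 ± 0.63, log2), a lysosomal protein of blood cells, Csf1r (6.39 ± 0.66), the macrophage growth factor receptor, and Cd52 (5.80 ± 0.60). The genes with the smallest p, named by rank after the fit, were the antigen presentation genes H2-Aa (6.72 ± 0.31) and Cd74 (6.86 ± 0.32), the MHC class II invariant chain. H2-Aa had 74, 111 and 91 UMIs in the Vim-bearing cells of mice 17F, 17M and 8M and 28, 64 and 16 in all others. Of the 7 basal markers, Krt15 (-1.08, edgeR adjusted p = 0.0115, and 0.119 with 1 copy of each shared barcode) and Col17a1 (-1.20, 0.00425), a hemidesmosome collagen, were lower and the other 5 did not pass. Of the 4 other members tested 0 were called by edgeR or DESeq2, and 2 had an unadjusted p under 0.05 with edgeR and 0 with DESeq2. Snai2 stood at -1.58 (edgeR adjusted p = 0.312), Cdh1 at -0.42 (0.939) and Cd44 at -0.44 (0.766), and no Vim-bearing cell had an Acta2 UMI. Krt5 and leukocyte transcripts were thus in the same barcodes, and whether these were 1 cell or 2 in a droplet was not tested. In only 4 of the 36 cells, each with 1 Vim UMI, was no immune, fibroblast, endothelial, muscle or glial marker found.

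Acta2 behaved differently. The 61 ESCC cells with an Acta2 UMI (19, 29 and 13 in mice 17F, 17M and 8M) were all Krt5-bearing, none was called non-epithelial, and all had at least 2 Krt5 UMIs. Of all 1500 ESCC cells, 97.7% were Krt5-bearing, 1.47% were called non-epithelial, and 1448 cells had at least 2 Krt5 UMIs. A muscle marker UMI was present in 3 of the 61 Acta2-bearing cells (4.92%, against 1.36% of the other Krt5-bearing cells), a fibroblast marker in 8 (13.1% against 7.07%), and an immune and an endothelial marker in 6 each (9.84% against 7.50% and 5.43%). In 43 of the 61 cells, with 74 of the 126 Acta2 UMIs, no immune, fibroblast, endothelial, muscle or glial marker was found. Among all 1461 Krt5-bearing cells not called non-epithelial this held for 1168. The 8 cells with a fibroblast marker held 40 of the 126 Acta2 UMIs, or 26 of 99 in 5 cells with 1 copy of each shared barcode. In mouse 17M, 2 of these 8 cells held 30 of its 71 Acta2 UMIs, and the cell with 20 was among them. Against the 1400 Krt5-bearing cells without Acta2, in a comparison also chosen after the values were seen, 43 of 7195 genes (0.598%) changed in edgeR, 25 of them (0.347%) higher. Of the contractile list 3 of 9 tested genes were higher, namely Actn1 (1.09 ± 0.22), Tpm1 (0.82 ± 0.21) and Actb (0.36 ± 0.10), whose reads can be shared with near-identical actin copies. Tpm1 was not called with 1 copy (0.75, edgeR adjusted p = 0.0638). The fibroblast marker Dcn, a matrix proteoglycan and the only one of its list tested, was higher (2.04 ± 0.46, edgeR adjusted p = 0.00255), at 0.88 (0.977) with 1 copy. The part of these markers in the other differences was not tested. Of the matrix and receptor list 3 of 12 were higher, among them the integrin subunit Itgb6 (2.39 ± 0.58, edgeR adjusted p = 0.0088) and Tgfbi (0.88 ± 0.20, 0.00451), a matrix protein induced by TGF-beta. Of the 6 tested superficial markers, Krt4 (-1.54 ± 0.13), Krtdap (-0.75 ± 0.12), Krt13 (-0.52 ± 0.10) and Cnfn were lower, Cnfn with 0, 3 and 0 UMIs in the Acta2-bearing cells of mice 17F, 17M and 8M against 38, 243 and 273 in the others. Krt4 had 15, 79 and 83 UMIs in the Acta2-bearing cells of mice 17F, 17M and 8M against 2230, 3078 and 5371 in the others. After Krt4, the genes with the smallest p, named by rank after the fit, were the interferon-induced Cxcl10 (4.23 ± 0.44), Gbp2 (3.13 ± 0.40), Ifit1 (3.36 ± 0.49) and Iigp1 (4.64 ± 0.69). Cxcl10 had 0, 19 and 43 UMIs in the Acta2-bearing cells of mice 17F, 17M and 8M and 18, 15 and 28 in the others, so that mouse 17F did not share its direction, and Iigp1, on 18 UMIs in the Acta2-bearing cells, could not be tested with 1 copy. Of the 3 members tested 0 were called by edgeR and 0 had an unadjusted p under 0.05, while DESeq2 called 0 of 9 with 1 under it. Cd44 stood at 0.29 (edgeR adjusted p = 0.894), Snai2 at 0.31 (0.997) and Cdh1 at 0.14 (0.997). The calls depended on single mice, with 0 calls without ESCC mouse 8M (402 at an unadjusted p under 0.05), 17 without 17M, 46 without 17F and 6 with DESeq2. Without 17M, Actn1 differed by 0.73 (edgeR adjusted p = 1.0), and Itgb6, with 17 of its UMIs in Acta2-bearing cells from that mouse and 1 in each other mouse, could not be tested. Krt4 stood at -1.19 without 17F, -1.94 without 17M and -1.64 without 8M, the last not called (edgeR adjusted p = 0.273).

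**Figure D4:**
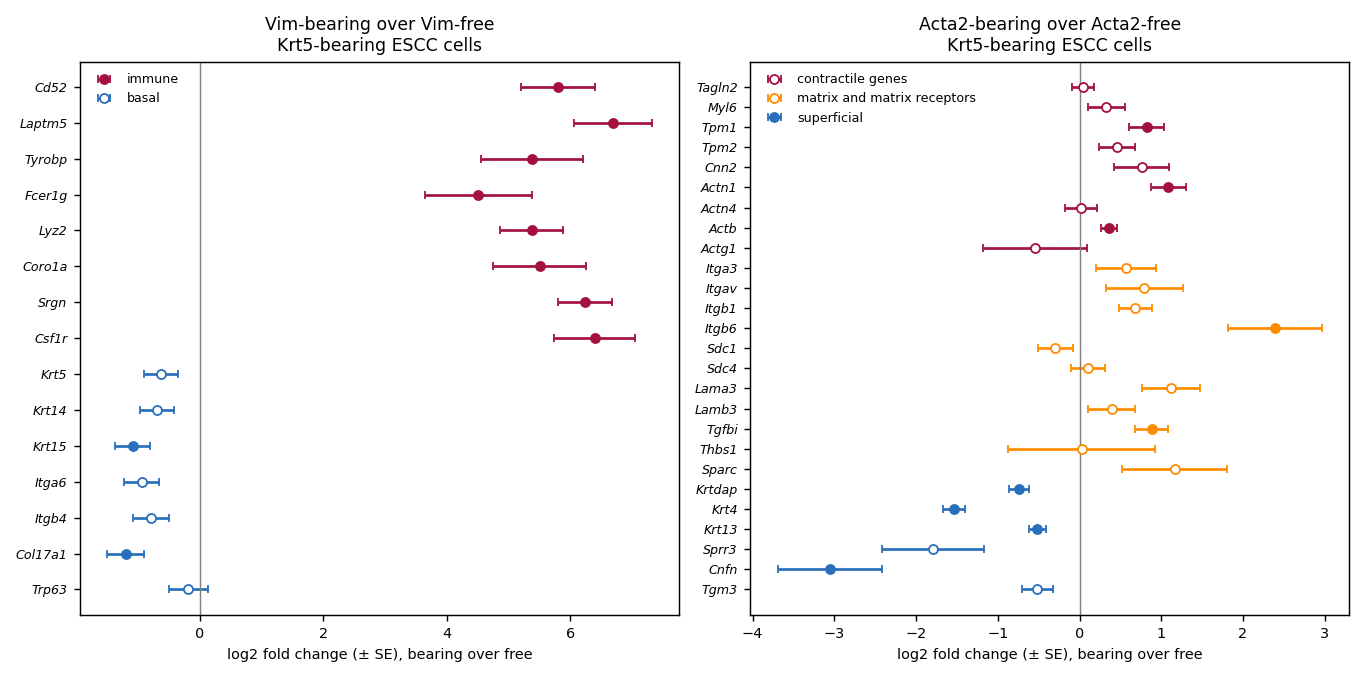
Log2 fold changes (x axis, ± SE, mouse as block) between Krt5-bearing ESCC cells with and without a Vim UMI (left; immune and basal markers) and with and without an Acta2 UMI (right; contractile, matrix and superficial genes, 1 matrix gene not shown); filled points have an edgeR adjusted p under 0.05. All 8 tested immune markers were higher in the Vim-bearing cells, and 4 of 6 superficial markers were lower in the Acta2-bearing cells.

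Overlap between the genes within these 1461 Krt5-bearing ESCC cells is given as counts. Acta2 was in 4 of 21 Tnc-bearing cells (19.0%) and in 57 of 1440 without Tnc (3.96%). Snai2 was in 23 of 61 Acta2-bearing cells (37.7%) and in 31.7% of the others. Cdh1 was in 135 of 467 Snai2-bearing cells (28.9%) and in 322 of 994 without Snai2 (32.4%). In cells thinned to 500 UMIs, which 1465 control, 1500 ESCC and 74 EoE cells could give, the share with a Cd44 UMI was 22.2% ± 3.80 in controls (SD, n = 6) and 29.0% ± 4.75 in ESCC (SD, n = 3), against 42.3% and 82.6% unthinned. In EoE it was 29.9% ± 10.2 (SD, n = 4), with a Cdh1 share of 19.4% ± 18.1 and no Snai2 UMI in the 74 cells. The unthinned Cd44 share in EoE, 14.7%, is over all cells, also the 1426 with under 500 UMIs, so it is not of the same cells. The Snai2 share was 5.74% ± 2.52 and 7.11% ± 1.88, and the Cdh1 share 6.06% ± 1.30 and 5.49% ± 1.57, both differences within the spread between mice. For Acta2 it was 0.379% ± 0.547 and 1.06% ± 0.415 and for Vim 1.01% ± 1.19 and 1.22% ± 0.919, both near the level of single UMIs. At 1000 UMIs, which 738 control and 1500 ESCC cells could give, the Acta2 share was 0.468% ± 0.579 in controls, 1.43% at most, and 1.89% ± 0.301 in ESCC, 1.56% at least, on 4 and 28 cells. The Vim share was 0.502% ± 0.808 and 2.47% ± 0.758, on 3 and 38 cells, with control mice reaching 1.85% and ESCC mice starting at 1.84%.

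No gene passed the adjusted threshold between old and young controls (0 of 6539, 0.0%, with edgeR, 327, that is 5.0%, at an unadjusted p under 0.05, 3 with DESeq2). The 5 tested members differed by -0.10 (Cd44), -0.26 (Cdh1), 0.26 (Fn1), 0.35 (Snai2) and -0.90 (Vim), each with an edgeR adjusted p of 1, and Vim by -0.40 with 1 copy of each shared barcode. The highest Vim level was in young control mouse 2 and the highest Fn1 level in old control mouse 3.

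The wider pathways were read from lists, whose counts stand beside 16.6% of all tested genes higher and 16.9% lower in ESCC against control (median -0.00) and 21.4% and 29.3% in EoE against control (median -0.31). Shares near these are no result about a list. Of 7 other transcription factors of epithelial-mesenchymal transition 6 had a UMI and none passed the filter. Twist1, a driver of mesenchymal fate in development, had 42 UMIs in 39 ESCC cells from all 3 mice and 1 UMI in a non-epithelial control cell. The 39 cells were all Krt5-bearing and none was non-epithelial, beside 97.7% and 1.47% of all ESCC cells. The Twist1 ratio over the groups was 15.6 (2.65 to 630), with 7.96 ± 4.40 CPM in ESCC and 1.37 ± 3.37 in controls. Zeb1 had 8 ESCC UMIs, 5 of them in non-epithelial cells, Zeb2 had 14, 2 of them there, Prrx1 had 5 UMIs each in control and EoE, none in a Krt5-bearing cell, and Snai1 had none in any group. In the plasminogen system, ESCC against control, 1 of 7 tested genes rose and 3 fell (median -0.51). The one that rose was Serpine2, protease nexin-1, an inhibitor of urokinase and thrombin. It had 523 UMIs against 3 in controls, 101 ± 27.0 CPM against 2.33 ± 3.24, a ratio of 64.7 (22 to 315). Of the 523 UMIs, 521 were in Krt5-bearing cells, which held 98.0% of all ESCC UMIs. S100a10 (-0.80), a plasminogen receptor subunit, Serpinb2 (-2.12), the second plasminogen activator inhibitor, and Serpinb8 (-1.70) fell. Anxa2, which binds S100a10 at the cell surface, stood at -0.51 (edgeR adjusted p = 0.0505). In EoE 1 of the 7 rose, Lrp1 (1.05), an endocytic receptor for protease-inhibitor complexes, and Anxa2 (-2.28), S100a10 (-3.33) and Serpinb2 (-1.38) fell (list median -1.54). Of the metalloproteinases and their inhibitors 3 of 14 were tested and 1 changed. Mmp2, a gelatinase, fell by 0.83 in ESCC, and Timp2 stood at -1.65 (edgeR adjusted p = 0.0667). Mmp14, the membrane type 1 enzyme, measured 197 ± 41.5 CPM in controls, 200 ± 36.1 in ESCC and 13.7 ± 10.4 in EoE, where it fell by 3.77 (edgeR, adjusted p under 0.05).

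In the adherens junction and epithelial list, 1 of 10 tested genes rose and 7 fell in ESCC against control, with a list median of -1.00. The cadherin-associated catenins fell, Ctnnb1 by 2.28, Ctnnd1 by 1.09 and Ctnna1 by 0.44, as did Epcam (-2.11) and the epithelial transcription factor Grhl3 (-2.13). Cdh3, the P-cadherin of basal keratinocytes, rose by 0.79. Cdh1 itself stood at 0.14 and plakoglobin (Jup) at -0.32 (edgeR adjusted p = 0.214). In EoE against control 1 rose and 5 fell, Ctnnb1 (-1.85), Ctnnd1 (-2.80), Epcam (-2.49), Grhl3 (-1.44) and Ctnna1 (-0.69), with Cdh1 at 1.13 and the list median at -1.18. In the CD44 and hyaluronan list 2 of 7 rose in ESCC and 4 fell (median -0.48). Cd74 rose by 5.99 and moesin (Msn), which ties Cd44 to actin, by 1.66, while ezrin (Ezr, -0.74), radixin (Rdx, -0.57) and the splicing factors Esrp1 (-0.48) and Esrp2 (-0.80), which set the epithelial Cd44 isoform, fell. Cd74 was also among the genes of the Vim-bearing cells above. In EoE Ezr (0.93) and the hyaluronidase Hyal1 (3.66) rose and Rdx, Esrp1 and Esrp2 fell (median 0.54).

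In the matrix and receptor list 1 of 11 rose and 2 fell in ESCC, Itga3 by 1.33, an integrin subunit that binds laminin, and Sdc4 (-0.91) and Sparc (-1.59) (median 0.04), so that the share called was under the 33.5% of all genes. In EoE 3 rose, Sdc4 (2.07), Sparc (1.51) and Itgb1 (1.17), and 4 fell, among them Tgfbi (-4.12), Sdc1 (-1.21) and Lamb3 (-0.97) (median -0.97). In the TGF-beta list 2 of 5 rose in ESCC, the receptor Tgfbr2 (0.99) and the repressor Skil (0.88), and Smad7 (-0.83) fell, while in EoE 1 of 5, Smad4, rose (1.89), with medians of -0.31 and 0.37. Of 9 tested contractile genes 4 rose and 1 fell in ESCC (median 0.30). Actn1, an actin crosslinker, rose by 2.38, from 39.2 ± 13.9 to 203 ± 79.0 CPM, Myl6 by 0.83 and Tpm2 by 0.57, and Cnn2 fell by 1.11, with Actn4 at -0.40 (edgeR adjusted p = 0.0738). Actg1 was also called, at 0 in all 6 controls and with 234 UMIs in ESCC. Actb, its near-identical partner, measured 4339 ± 500 CPM in controls and 4199 ± 214 in ESCC, and how the counting divided reads between the actin copies is not given in the sources used here.

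The genes with levels most like each member over the 13 mice (Pearson r of log2 CPM, without a test, over mice that differ in depth and in group) were Wnt10a (0.95), Rida (0.94) and Ndufa11 (0.94) for Snai2. For Cdh1 they were Nhp2 (0.90), Rnf6 (0.85) and Mroh1 (0.85), and for Cd44 Ptpn1 (0.92), Pno1 (0.92) and Ube2l3 (0.91).

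In the GRCm38 genome (GENCODE M21 gene models) the genes lie on separate loci. Vim (ENSMUSG00000026728) is at chr2:13573927-13582826 and Cd44 (ENSMUSG00000005087) at chr2:102811141-102901665. Snai2 (ENSMUSG00000022676) is at chr16:14705852-14709385, Cdh1 (ENSMUSG00000000303) at chr8:106603351-106670246 and Acta2 (ENSMUSG00000035783) at chr19:34241090-34255590. Fn1 (ENSMUSG00000026193) is at chr1:71585520-71653200, Tnc (ENSMUSG00000028364) at chr4:63959785-64047015 and Mmp13 (ENSMUSG00000050578) at chr9:7272514-7283331. Plau (ENSMUSG00000021822) is at chr14:20836660-20843385 and Plaur (ENSMUSG00000046223) at chr7:24462484-24475968. All are protein coding. Exons of Fn1 overlap Apol7d and exons of Tnc overlap 8030451A03Rik on the other strand, and without a stated strand setting reads of these pairs cannot be told apart.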

How the data were processed

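UMI counts per gene and cell were deposited by the authors, who extracted barcodes with UMI-tools 1.0.0, aligned reads with STAR 2.7.3 to GRCm38, assigned them with featureCounts, excluded genes found in few cells and drew 1500 cells per condition. From these counts, UMIs were summed per mouse (both libraries of a mouse pooled) and tested with edgeR 4.0.16 in R 4.3.3 (quasi-likelihood, TMM, filterByExpr, all 13 mice in 3 groups, Benjamini-Hochberg, 0.05). Krt5-bearing and Krt5-free cells, and those with and without Vim or Acta2, were summed separately with the mouse as a block. DESeq2 1.42.0 was an alternative. The fits were tested on simulated data. Depth was 61571 to 2118140 UMIs per mouse. Genes named were the 10 members, Krt5, the 4 most abundant genes of each list and, where 5 or fewer of a list passed, those, and for members with a UMI in all 13 mice the 3 most alike genes. Where more than 5 of a list passed, those named beyond the 4 most abundant were chosen after their values were seen, as were the genes named by rank. Members, lists and tests were chosen with earlier results of these data known. Alternatives are listed in the closing section. The values of 1 gene of the matrix and receptor list are not reported here. No sequence is printed.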

Additional observations from a re-analysis of the deposited data

Results flagged for a closer look

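Among the 14 groups of 4 or 6 mice examined for a value far from the rest, 3 were found. The nominal rate of the rule, about 1 in 20, does not apply to counts of 0 to 3 UMIs such as these. The number found therefore cannot be set against that rate. Tnc was highest in control mouse 3 at 24.7 CPM, on 3 UMIs. Plau was highest in the same mouse at 8.25 CPM, on 1 UMI, and at 0 with 1 copy of each shared barcode, and control mouse 3 had the lowest total of the controls. Plaur was highest in control mouse 5 at 6.83 CPM, on 2 UMIs, with the other 5 controls at 0.

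The change of Snai2 against control differed between the diseases, with ESCC above EoE by 1.84 on the log2 scale (edgeR adjusted p = 0.000423), and that of Cdh1 differed by -1.00 (adjusted p = 0.00703), the latter at -0.41 (0.245) without EoE mouse 9.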

How the results depend on the processing

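Of the log2 values of single members recomputed under the alternatives, 300 kept their direction and side of the threshold, 17 lost a call, 10 gained one and 16 changed sign. In ESCC against control the 2001 calls became 414 with all mice thinned to the shallowest and 1193 with old controls only, and without TMM 744 of 2136 calls were higher in place of 991 of 2001. In EoE against control 3030 calls became 1698 in Krt5-bearing cells and 1248 thinned, and in ESCC against EoE 3375 became 1797, 1185 and, with these 2 groups alone, 1401. Old against young controls gave 0 calls, 3 with DESeq2, 19 without a filter, 5 with the 6 controls alone and 0 to 1 with a mouse left out. For Krt5-bearing against Krt5-free cells, controls gave 2141 without a filter. ESCC gave 161, 88 without non-epithelial cells, 252 with the status read at 500 UMIs, 295 with DESeq2 and 13 to 250 with a mouse left out (13 without 17F, 250 without 8M). EoE gave 38, 6 with at least 2 Krt5 UMIs, 12 with DESeq2, 120 without a filter and 9 to 84 with a mouse left out. The Acta2 comparison gave 43, 6 with DESeq2 and 0 to 46 with a mouse left out, and the Vim comparison 97, 183 with DESeq2, 146 without a filter and 65 to 74 with a mouse left out. The cause of these shifts was not tested. Thinned to 1000 UMIs, the Cd44 share was 11.7 points higher in ESCC than in controls, against 6.81 at 500.

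Signs changed for Cdh1 in ESCC against control without TMM (-0.018) and for Cd44 in EoE against control in Krt5-bearing cells (-0.23). In ESCC against EoE, Cd44 became 0.58 within the limits, 0.57 also without non-epithelial cells, 0.96 in Krt5-bearing cells, 0.0068 thinned, 0.10 without a filter, 0.21 with the 2 groups alone and 0.032 without 8M, and Cdh1 became 0.025 in Krt5-bearing cells. Between ages, Cd44 ranged from -0.26 to 0.077 with a mouse left out and Fn1 from -0.35 to 1.00. Cd44 in Krt5-bearing against Krt5-free EoE cells ranged from -0.67 to 0.048. In the Acta2 comparison with a mouse left out, Cd44 ranged from -0.10 to 0.52, Cdh1 from -0.78 to 0.41 and Snai2 from -0.13 to 0.71. Snai2 could not be tested in the thinned fits or between the 2 diseases alone. Depth limits the EoE values most, since its cells held a median of 138 UMIs. No paired analysis was possible because the groups compared share no mice or replicate numbers, and contrasts within a group used the mouse as a block.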
